A study of Microtus ochrogaster with 46 samples.

Results

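A set of 150 genes was higher in the nucleus accumbens of prairie voles of both sexes after 24 h with an opposite-sex partner than in naive animals of the same sex, and this is how the genes were chosen. For each of the 12296 genes whose normalized count averaged 50 or more, the difference between the mean log2 levels at 24 h and in naive animals was taken in females and in males, and the smaller of both differences was kept. It was at least 0.15 in 414 genes. From these, 24 genes were dropped because their absolute correlation with the vasopressin receptor gene Avpr1a across the 29 female libraries, with group means removed, was at least 0.7. The 150 highest of the remaining 390 were taken, out of 17479 genes in the table. The libraries of animals paired for 3 weeks took no part in the choice, apart from the female ones in the Avpr1a step and all of them in the mean count.

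RNA-seq libraries were made from frozen tissue punches of 46 voles (Microtus ochrogaster). Naive animals had shared a cage with a littermate of their own sex for 3 weeks (10 females, 6 males). Paired animals had been housed with an opposite-sex partner for 24 h (10 females, 6 males) or 3 weeks (9 females, 5 males). Group sizes were taken from the titles of the samples; the series' own design text counts 6 females in the longer pairing. The labels used here name neither age nor strain.

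The prairie vole is a rodent in which mates bond for the long term. The nucleus accumbens, a part of the ventral striatum made up mainly of medium spiny neurons, is a brain region in which dopamine, oxytocin and vasopressin signalling have been tied to partner preference. The study compared animals before pairing, early in a bond and later in it. The table gave identifiers for 17478 genes and a symbol for Avpr1a alone, and 0 of the identifiers matched the reference gene table, so members are named by identifier and their functions and sequences are not described. The tissue label could not be checked against cell type markers for the same reason. In tissue punches, a change in the number of cells of a type and a change in RNA per cell cannot be told apart.

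Estimated depth ran from 15.7 to 37.7 M (M for mega) reads assigned to genes per library, and group means lay between 27.6 and 31.8 M. Low values fell on steps that carried a gene-specific factor, and by these factors the libraries were split into 2 patterns, a number set beforehand. The steps were less clear in some libraries. The share of low values within 0.1 of a whole number of reads was 33.0% in male naive replicate 1. It was 55.6% in female 3 weeks replicate 1, which gave the lowest depth, and up to 91.8% in others. Every naive male (6) and every male paired for 3 weeks (5) had one pattern, and the other 35 libraries, including all females and all males at 24 h, had the other. Comparisons of males at 24 h with naive males or males at 3 weeks therefore ran across the patterns. So did the male-female comparisons before pairing and at 3 weeks, and pattern and group cannot be told apart in any of these. The rise in females and the comparison of the sexes at 24 h lay within 1 pattern.

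The rises were small for most members. All values are on the scale log2(normalized count + 1). The median rise was 0.27 in females (middle 50% of genes: 0.24 to 0.36, highest 2.85) and 0.30 in males (0.24 to 0.43, highest 2.08). Over all 14455 genes tested the medians were -0.0071 and 0.0017. The smaller of both rises ran from 0.20 to 1.52 with a median of 0.25. The list ended on a slope without a gap: the last 3 members had smaller rises of 0.2032, 0.2032 and 0.2028, and the 3 genes just outside it 0.2025, 0.2025 and 0.2022. Only the first 10 members had a smaller rise of 0.50 or more.

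**Figure D1:**
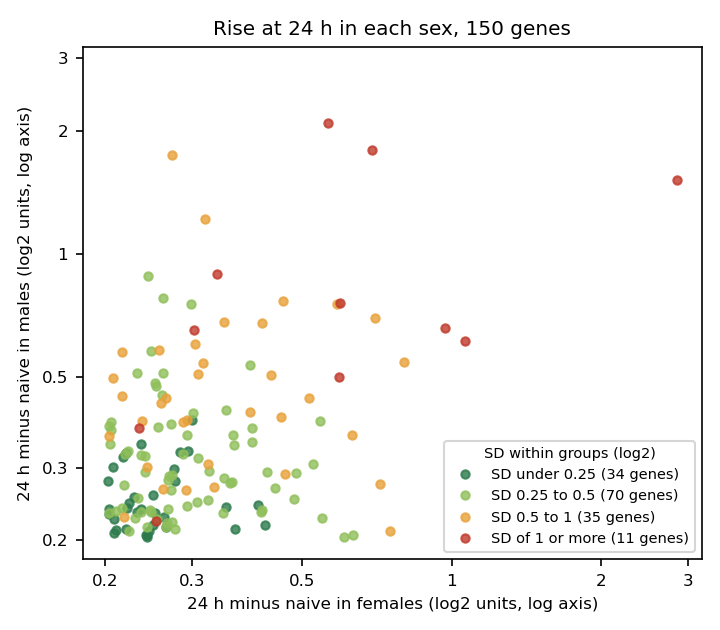
Difference between the mean log2 level at 24 h and in naive animals, females on the x axis and males on the y axis (both log axes), 1 point per gene, coloured by the SD within groups. Most of the 150 genes sit near the lower left, and the genes with an SD of 1 or more reach 2.85 in females and 2.08 in males.

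The mean level of all members was followed in each library as a score. It was the mean over the 150 genes of the log2 level minus the mean of that gene's 6 group means. In naive females the score was -0.19 ± 0.09 (SD, n = 10), with a lowest value of -0.274, a median of -0.215 and a highest of 0.014. At 24 h it was 0.16 ± 0.14 (n = 10), from 0.034 through a median of 0.133 to 0.499 in replicate 1. In females at 3 weeks it was -0.05 ± 0.10 (n = 9), from -0.161 through -0.101 to 0.102. Every female library at 24 h lay above every naive one, an order that the choice of the genes favours, and the 3 week libraries overlapped both groups. Males gave -0.16 ± 0.12 (n = 6; -0.291, -0.186, 0.001) when naive and 0.23 ± 0.10 (n = 6; 0.116, 0.216, 0.390) at 24 h. The 5 males at 3 weeks had scores of -0.150, 0.066, -0.067, 0.124 and 0.066 for replicates 1 to 5 (mean 0.008 ± 0.11). This group, too, overlapped both others, its highest value lying above the lowest male at 24 h.

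**Figure D2:**
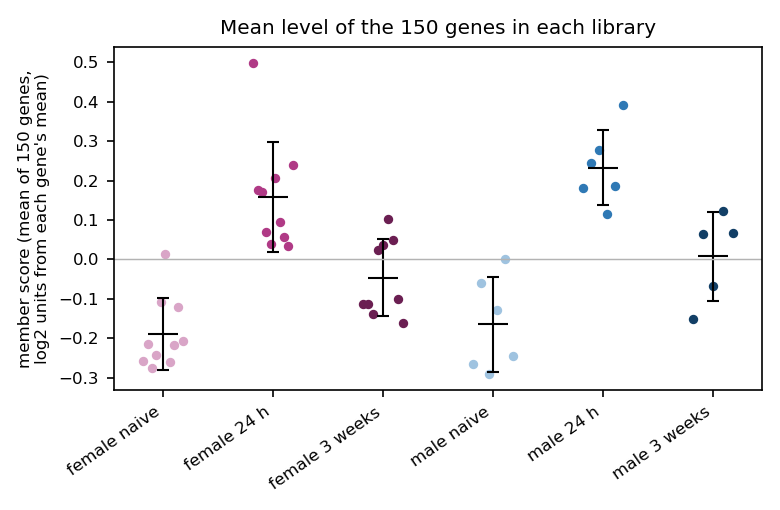
Mean level of the 150 genes in each library (y axis, log2 units from each gene's mean) for the 6 groups, with the group mean and SD. Both 24 h groups sit above their naive group by the choice of the genes, and the 3 week groups, with means of -0.046 and 0.008, sit between.

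Single members overlapped between the groups. In females 0 of 150 members had every 24 h library above every naive library, and this held for 0% of all genes tested. In males the count was also 0 of 150, against 0.339% of all genes tested. The rise was measured against the pooled SD of the naive and 24 h groups of the same sex. Its median size was 0.79 SD in females and 0.87 SD in males. By this measure 32 members rose by at least 1 SD in both sexes, a count not made over all genes. With limma and Benjamini-Hochberg adjustment over all genes tested, 0 of 150 members had an adjusted p under 0.05 for the rise in females. In males it was also 0, and the backgrounds, for higher genes only, were 0.0346% and 0.083%. An unadjusted p under 0.05 was found in 63 members in females (42% against 19.4% of all genes) and 43 in males (28.7% against 11.9%). These last shares of all genes count both directions, while every member was higher at 24 h. Since these contrasts chose the genes, nothing is read from any of these counts.

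The members varied more between animals of a group than other genes did. Their median SD within groups, over all 46 libraries, was 0.38, against 0.19 over the 12296 genes of that abundance. Their median mean count was 193 against 762. An SD under 0.25 was found in 34 members (22.7%, against 66.4% of those genes), and 70 members (46.7% against 27.4%) had an SD from 0.25 to 0.5. A further 35 members (23.3% against 5.23%) lay between 0.5 and 1, and 11 (7.33% against 0.976%) at 1 or more. A rule on differences of means favours genes with a wide spread, so these shares describe the list and are no test.

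The members with the narrowest spread were also the more abundant, with a median mean count of 702 for those with an SD under 0.25. ENSMOCG00000021775 was chosen here after its values were seen, by the ratio of its rise to the pooled SD of naive and 24 h animals. This ratio was 1.87 in females and 2.02 in males, and the smaller of both was higher than in any other member. The log2 level of this gene was 13.70 ± 0.15 in naive females (SD, n = 10, lowest 13.45, median 13.71, highest 13.90) and 13.998 ± 0.16 at 24 h (n = 10: 13.78, 14.01, 14.34). In males its level was 13.73 ± 0.11 (n = 6; 13.59, 13.74, 13.88) when naive and 14.06 ± 0.20 (n = 6; 13.83, 14.07, 14.39) at 24 h. The lowest 24 h values overlapped the highest naive ones in both sexes. At 3 weeks its level was 13.72 ± 0.19 in females (n = 9; 13.50, 13.74, 14.13), and the males had 13.90, 13.93, 13.60, 13.90 and 13.91. The female mean at 3 weeks thus lay next to the naive mean, and the male mean between naive and 24 h.

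ENSMOCG00000013526, the next by that ratio and also chosen after its values were seen, rose by less on the log2 scale. Its level was 9.69 ± 0.11 in naive females (n = 10; 9.47, 9.67, 9.89) and 9.93 ± 0.16 at 24 h (n = 10; 9.70, 9.97, 10.17). Naive males had 9.73 ± 0.09 (n = 6; 9.64, 9.71, 9.85) and males at 24 h 9.93 ± 0.13 (n = 6; 9.79, 9.93, 10.11). At 3 weeks females had 9.81 ± 0.18 (n = 9; 9.59, 9.76, 10.16), midway between both groups, while males had 9.71, 9.80, 9.70, 9.82 and 9.77, all below the lowest male at 24 h except the libraries at 9.80 and 9.82.

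The head of the list held genes whose libraries fell on either a low or a high level. ENSMOCG00000001370, with the largest smaller rise, had a gap of 2.36 log2 units in which none of the 46 libraries lay, with 13 libraries below and 33 above. The upper level held 4 of 10 naive females, 7 of 10 females at 24 h and 7 of 9 at 3 weeks. In males it held 5 of 6, 6 of 6 and 4 of 5. Its log2 level was 4.69 ± 3.21 in naive females (lowest 0, median 3.38, highest 8.45), 7.54 ± 2.69 in females at 24 h (2.74, 8.59, 10.39) and 7.37 ± 2.07 in females at 3 weeks (3.59, 8.19, 8.91). In males it was 7.33 ± 2.62 (2.19, 7.98, 9.81) when naive, 8.85 ± 0.68 (7.99, 8.81, 10.04) at 24 h, and 4.37, 9.79, 9.42, 7.15 and 8.00 at 3 weeks. In naive males a single library at 2.19 stood apart from the others, which began at 7.92.

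ENSMOCG00000002783, next but one in the list and with the widest such gap among members (2.56 log2 units), showed the same form with other animals on the low side. High libraries were 8 of 10 naive females, 9 of 10 at 24 h and 9 of 9 at 3 weeks, and 2 of 6 naive males, 4 of 6 at 24 h and 4 of 5 at 3 weeks. Within naive males its level ran from 1.74 through a median of 3.93 to 9.00, and at 24 h from 2.60 through 7.94 to 9.08. In females it ran from 2.48 through 8.20 to 9.09 when naive, and from 3.81 through 8.21 to 9.43 at 24 h. Counting genes with a gap of at least 1 log2 unit and at least 3 libraries on each side, 7 members (4.67%) qualified, against 0.553% of the 12296 genes, and 5 of the 7 were among the first 10 of the list. The mean of such a gene moves with the share of animals on each side.

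ENSMOCG00000001604, the second of the list, rose without such a gap. Its level went from 5.93 ± 0.62 (n = 10; 4.94, 6.00, 6.72) in naive females to 6.63 ± 0.52 (n = 10; 5.81, 6.51, 7.48) at 24 h. In males it went from 6.00 ± 0.71 (n = 6; 5.24, 5.94, 7.01) to 6.70 ± 0.33 (n = 6; 6.29, 6.66, 7.24), and the smaller rise is a 1.62-fold difference. At 3 weeks females had 6.36 ± 0.35 (n = 9; 5.96, 6.28, 6.92), and males had 6.37, 6.84, 6.83, 6.28 and 5.75. The groups overlapped in every one of these comparisons.

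**Figure D3:**
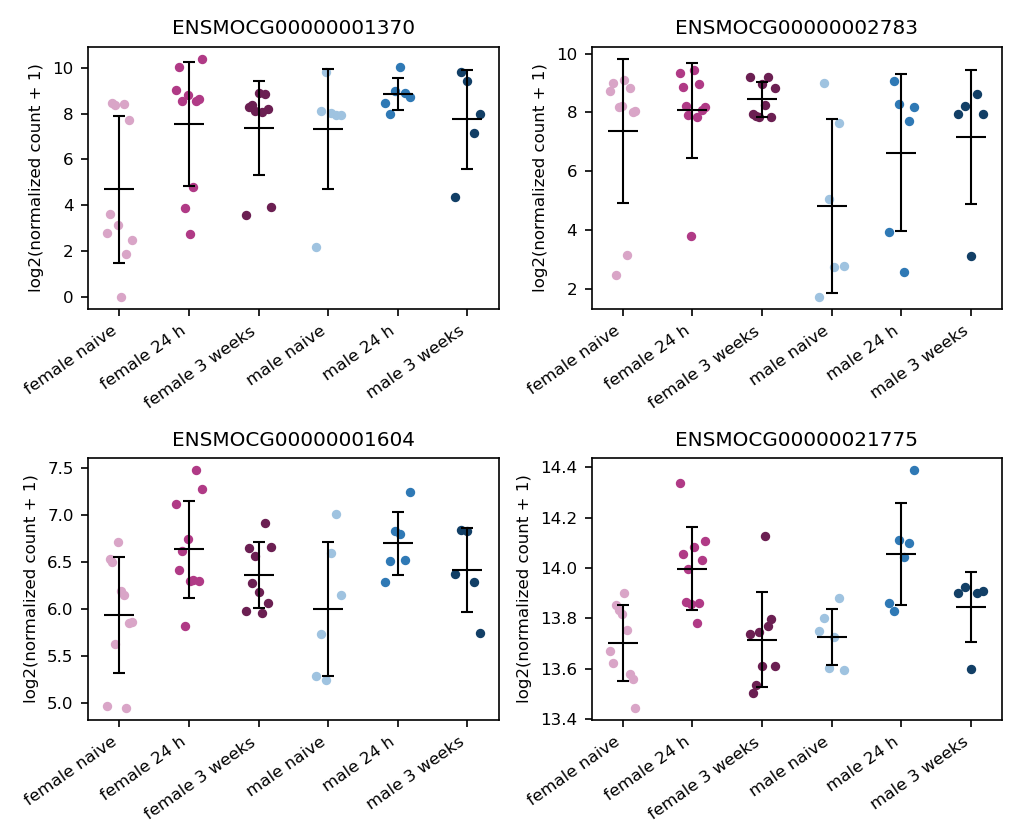
Log2(normalized count + 1) of 4 members in each library (points), with group mean and SD, for the 6 groups. ENSMOCG00000001370 and ENSMOCG00000002783 fall on a low and a high level, while ENSMOCG00000001604 and ENSMOCG00000021775 shift with overlap.

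Whether the members stayed high after 3 weeks with a partner was asked of libraries whose groups did not set the rise. In females the mean at 3 weeks lay between naive and 24 h in 93 members, below naive in 39 and above 24 h in 18. In males it lay between in 92, below in 34 and above in 24, and 63 members lay between in both sexes. The rule set the naive and 24 h means apart, which favours a 3 week mean between them. These counts were not made over all genes and are a description. The median difference from naive animals at 3 weeks was 0.09 in females (above 0 in 111 of 150) and 0.13 in males (116 of 150). Both comparisons share the naive libraries with the rule, which chose genes that were low there, so no test was made of them.

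The 3 week mean was therefore set against the midpoint of naive and 24 h, a difference that is uncorrelated with the rise when both groups have equal numbers and the same spread. The member score did not have the same spread in both groups. Its SD was 0.09 in naive females and 0.14 at 24 h, and 0.12 and 0.10 in males. In females 91 members lay below the midpoint and 59 above, with a median of -0.05, and over all genes tested 51.9% lay below with a median of -0.0041. In males 86 lay below and 64 above, with a median of -0.04, against 50.1% of all genes and a median near 0 (-0.00021). The male midpoint averages groups of both patterns of low-value steps, and males at 3 weeks had the pattern of naive males. A gene-specific factor of the pattern would thus enter both the male rise and this difference. The same limit holds for the average over the sexes, and the part of the pattern was not tested. The female median was -0.034 without female 24 h replicate 1, and ran from -0.071 to -0.033 over the alternative analyses. The male median was -0.020 without male 3 weeks replicate 3, -0.023 without replicate 1 and -0.012 for the 100 highest members. Averaged over the sexes, 101 members lay below and 49 above, with a median of -0.04, against 51.7% and -0.0028. With limma, 0 of 150 members had an adjusted p under 0.05 in each of these 3 comparisons, as was the case for 0% of the 14455 genes tested. An unadjusted p under 0.05 was found in 12 members in females (8% against 3.73% of all genes), 7 in males (4.67% against 4.02%) and 14 for both sexes averaged (9.33% against 4.64%). No member's place at 3 weeks was told apart from the midpoint at this sample size.

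ENSMOCG00000003726 had the lowest adjusted p of any member in the male comparison. Its level was 7.17 ± 0.24 in naive males (n = 6; 6.81, 7.14, 7.53), 7.49 ± 0.19 at 24 h (n = 6; 7.30, 7.42, 7.75), and 6.72, 6.96, 6.92, 7.10 and 6.89 at 3 weeks. All 5 males at 3 weeks lay below the lowest male at 24 h, a group with the other pattern of low-value steps. The 3 week mean lay 0.41 below the midpoint (SE 0.11), and the adjusted p from limma was 0.737 (unadjusted 0.000408). In females the levels were 7.33 ± 0.14 (n = 10; 6.99, 7.37, 7.46), 7.55 ± 0.24 (n = 10; 7.21, 7.57, 7.95) and 7.38 ± 0.17 (n = 9; 7.11, 7.38, 7.72), with overlap between all 3 groups.

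The place at 3 weeks was also read by classes of spread. For the 34 members with an SD under 0.25, the median difference from naive was 0.24 at 24 h and 0.07 at 3 weeks in females, and 0.24 and 0.07 in males. In this class 25 of 34 members lay below the midpoint in females and 26 of 34 in males. The 70 members with an SD from 0.25 to 0.5 had medians of 0.27 and 0.09 in females and 0.29 and 0.11 in males, and 45 and 42 of them lay below the midpoint. The 35 members with an SD from 0.5 to 1 had medians of 0.31 at 24 h and 0.24 at 3 weeks in females and 0.44 and 0.33 in males, and 15 and 14 of them lay below the midpoint. The 11 members with the widest spread had medians of 0.59 and -0.01 in females and 0.66 and 0.53 in males, with 6 and 4 below the midpoint. These counts below the midpoint were not made over all genes of the same spread. Over all genes tested, of any spread, 51.9% lay below in females and 50.1% in males. The difference between these classes was not tested. In males the midpoint mixes both patterns of low-value steps here too, and the part of the patterns was not tested.

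**Figure D4:**
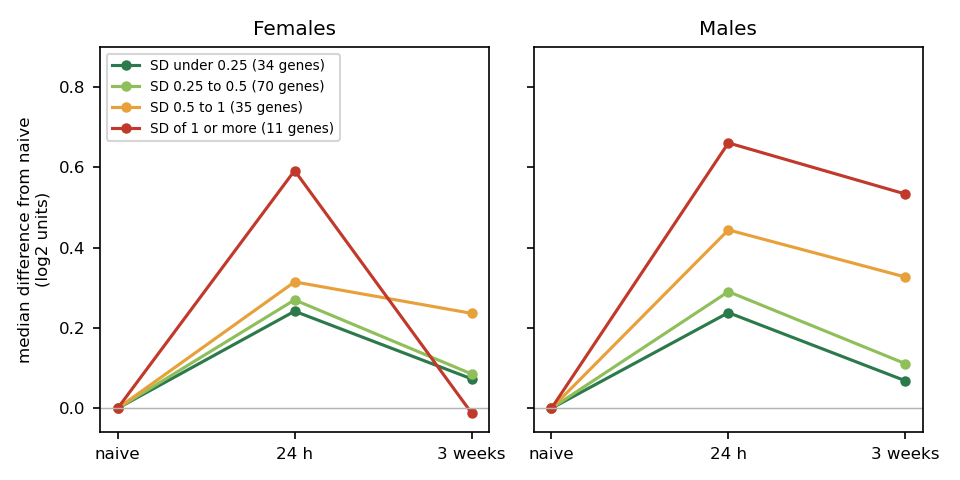
Median difference from naive animals (y axis, log2 units) at 24 h and 3 weeks in females and males, for members grouped by their SD within groups. The genes with an SD under 0.25 go from 0.24 at 24 h to 0.07 at 3 weeks in both sexes; the naive points are 0 by definition.

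Levels between the sexes were compared over the 3 conditions, a difference that the choice of members did not use. Males were higher in 16 members and lower in 5 at an adjusted p under 0.05 (limma, Benjamini-Hochberg over all genes tested). The share higher was 10.7%, near the background of 10.3%, and the share lower was 3.33% against 9.37%. The median difference over members was 0.03, against -0.0032 over all genes tested, with 80 members above 0 and 70 below. It was 0.010 without male 3 weeks replicate 5 or with quantile normalization. The 21 members kept the sign of their difference in each of the 3 conditions, with a median size of 0.35 in naive animals, 0.30 at 24 h and 0.49 at 3 weeks. They were chosen on the mean of these same conditions, which favours 1 sign throughout, so this is a description. The value at 24 h lies within 1 pattern of low-value steps.

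ENSMOCG00000018638 had the largest difference among the members higher in males, 1.29 (SE 0.27, adjusted p = 0.00106 by limma). Its level was 6.34 ± 1.12 (n = 10; 4.21, 6.68, 7.65), 6.79 ± 0.96 (n = 10; 5.18, 6.71, 8.80) and 6.42 ± 0.85 (n = 9; 5.02, 6.52, 7.43) in naive females and females at 24 h and 3 weeks. In males it was 7.34 ± 0.88 (n = 6; 5.66, 7.51, 8.28) when naive and 8.11 ± 0.56 (n = 6; 7.13, 8.19, 8.82) at 24 h, and 8.23, 8.08, 6.34, 8.27 and 8.91 at 3 weeks. The sexes overlapped in every condition. ENSMOCG00000000254 followed with 0.89 (SE 0.19, adjusted p = 0.0013 by limma), from means of 7.14, 7.38 and 7.12 in females and 7.83, 8.22 and 8.25 in males for the naive, 24 h and 3 week groups. Its 5 males at 3 weeks, at 7.77, 8.40, 7.99, 8.47 and 8.62, all lay above the highest female at 3 weeks, 7.73. At 3 weeks alone its adjusted p was 0.0596 by limma, above the threshold, and that comparison ran across the patterns of low-value steps.

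Of the members lower in males, ENSMOCG00000002783 had the largest difference, -1.75 (SE 0.64, adjusted p = 0.0467 by limma), and is the gene with the separate low and high levels described above. Its adjusted p rose above 0.05 in 8 of 14 alternative analyses, where the difference ran from -1.84 to -1.42. ENSMOCG00000001963 differed by -0.90 (SE 0.26, adjusted p = 0.0122 by limma). Its level in females was 10.91 ± 0.34 (n = 10; 10.37, 10.93, 11.56), 11.18 ± 0.35 (n = 10; 10.73, 11.04, 11.84) and 10.86 ± 0.39 (n = 9; 10.51, 10.79, 11.78). Naive males ranged from 5.73 through 9.61 to 11.04, males at 24 h from 10.55 through 11.07 to 11.33, and males at 3 weeks had 9.73, 7.69, 10.54, 10.85 and 10.91. Males at 24 h thus overlapped the females at 24 h, and low values occurred in naive and 3 week males, the groups that also had the other pattern of low-value steps; the part of that pattern in the result was not tested.

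**Figure D5:**
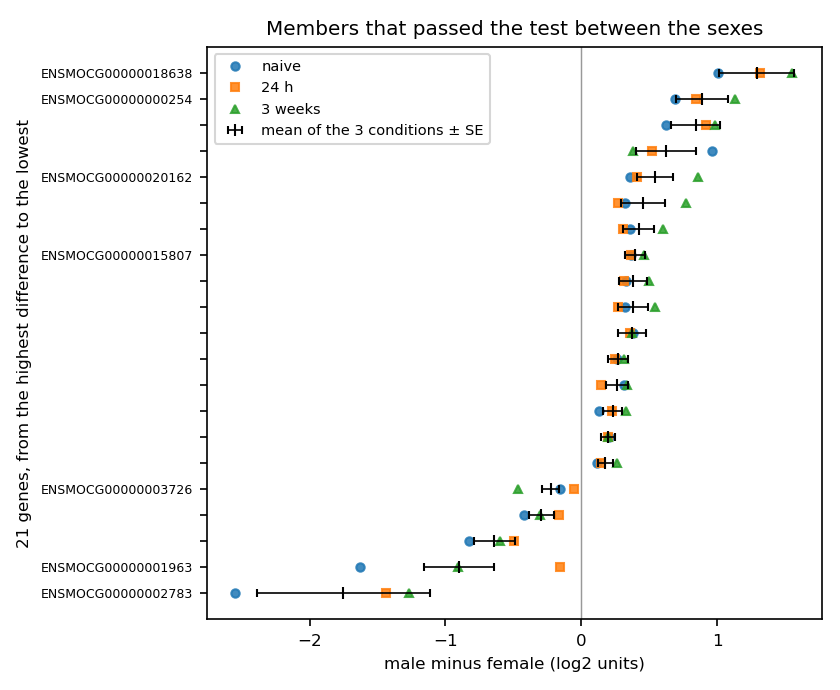
Male minus female difference (x axis, log2 units) of the 21 members with an adjusted p under 0.05, in naive animals, at 24 h and at 3 weeks, with the mean of the 3 conditions and its SE; genes with values in the text are labelled. All 16 genes higher in males lie right of 0, and all 5 lower in males lie left of it, in each condition.

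At 3 weeks alone, with libraries that took no part in the rise, 2 members were higher in males (1.33%, background 1.53%) and 1 was lower (0.667%, background 1.66%). ENSMOCG00000020162 was higher by 0.86 (SE 0.24, adjusted p = 0.0361 by limma): females ranged from 5.18 through 5.83 to 7.02, and males had 7.00, 7.17, 6.28, 6.72 and 6.75. ENSMOCG00000015807 was higher by 0.46 (SE 0.13, adjusted p = 0.0483 by limma), and its males, at 9.28, 9.37, 9.27, 9.36 and 9.42, all lay above the highest of 9 females, 9.13. ENSMOCG00000003726 was lower by 0.47 in males (difference -0.47, SE 0.11, adjusted p = 0.0187 by limma), and its 5 males lay below the lowest female, 7.11. All 3 also passed between the sexes over the 3 conditions, a comparison that includes these same 3 week libraries. At 24 h, within 1 pattern of low-value steps, the differences were 0.41 for ENSMOCG00000020162, 0.36 for ENSMOCG00000015807 and -0.05 for ENSMOCG00000003726. In naive animals they were 0.35, 0.36 and -0.16. The share of all genes without overlap between the sexes at 3 weeks was not taken. At 3 weeks the adjusted p rose above 0.05 for ENSMOCG00000015807 in 7 of 15 alternative analyses (difference 0.44 to 0.47, adjusted p 0.0554 to 0.129), for ENSMOCG00000020162 in 5 (0.76 to 0.88, adjusted p 0.0697 to 0.134) and for ENSMOCG00000003726 in 3 (-0.48 to -0.42, adjusted p 0.0528 to 0.067). Without male 3 weeks replicate 1, 2 or 5 the count of members fell to 0, without replicate 4 it was 1, and without replicate 3 it was 7.

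Avpr1a itself could not enter the list under the correlation limit, and no member could reach an absolute correlation of 0.7 with it. Across the 29 female libraries with group means removed, the median correlation of the 150 members with Avpr1a was 0.03, with 81 positive. The 16 members higher in males had a median of 0.44 (from -0.10 to 0.70; 15 positive), and the 5 lower in males had -0.17 (1 positive). These values describe genes measured in the same libraries. No such value was taken for genes outside the list that differ between the sexes, so these are not read as particular to the members.

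The members did not move as a single block from animal to animal. Over the 14 libraries at 3 weeks, with group means removed, the median correlation among the 11175 pairs of members was 0.055, against -0.0016 among all pairs of genes tested. A correlation of at least 0.5 was found in 7.48% of member pairs and 7.23% of all pairs, and one of at most -0.5 in 3.25% and 7.01%. Over all 46 libraries the median was 0.071 against -0.0028, with 1.83% of member pairs at 0.5 or more against 2.36%, and 0.116% at -0.5 or less against 1.85%. Genes that followed or opposed Avpr1a closely in females had been dropped from the members but not from all genes, so these shares are not like for like. All these values share libraries and depth, and they are given as a description.

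The rises were recomputed without each naive and 24 h library in turn. Leaving out female 24 h replicate 1, the library with the highest score, put 13 of 150 members below a smaller rise of 0.15 and lowered the median rise in females to 0.25. Leaving out male naive replicate 3 put 10 members below it, and male 24 h replicate 6 put 9. Any other single library of the naive and 24 h groups put 0 to 8 members below 0.15. At most 2 members were at or below 0 in any of these, without female naive replicate 3 or male naive replicate 4.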

How the data were processed

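Per the labels' protocols, poly(A) RNA from punches of the nucleus accumbens was made into unstranded libraries; Salmon 0.12, DESeq2, fastp 0.14.1, bcl2fastq 2.20.0.422 and FastQC 0.11.7 are named in the submitters' processing notes. No build or annotation was given in the sources used here. In 1 table, the authors deposited log2 values that, from the values themselves, are log2 of a normalized count plus 1 (0 to 19.9). No counts were recovered, so no count model was used.

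Tests used limma 3.58.1 (R 4.3.3; trend, robust) in 1 fit of 6 group means over 46 libraries, for the 14455 genes whose normalized count averaged 10 or more. Each comparison was adjusted by Benjamini-Hochberg, with a threshold of 0.05. It was checked on simulated data. There were 5 tested comparisons. Other values came from Python 3.11.15. The pseudocount of 1 understates changes of low genes. Depth was each total divided by the value of 1 read, read from the steps of low values. With no symbols, identifiers were named as the 2 largest differences in each direction per comparison, and others are said to be chosen after their values were seen. The gene lists and cell type markers could not be matched and were not used. The members and lists were chosen with earlier results of these data known. Deviations of same-numbered animals correlated weakly, with medians per pair of groups from -0.10 to 0.13, so replicate numbers were not taken as pairs. Animals with different numbers were not compared in this way.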

Additional observations from a re-analysis of the deposited data

Results flagged for a closer look

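In 12 values (the member score and 11 named genes) each of the 6 groups was searched for a library far from the rest, and 8 of 72 groups had one. The limit used (Dixon's 95% value) lets chance flag about 1 in 20 groups, and several of these genes were picked for wide gaps or differences, so the number of such groups is not read against that share. Female 24 h replicate 1 had a member score of 0.499, with the next at 0.238. ENSMOCG00000001370 was at a log2 level of 2.19 in male naive replicate 1, with the next at 7.92. ENSMOCG00000021775 was at 14.13 in female 3 weeks replicate 6, with the next at 13.80, and at 13.60 in male 3 weeks replicate 3, with the next at 13.90. ENSMOCG00000002783 was at 3.81 in female 24 h replicate 5 (next 7.83) and at 3.14 in male 3 weeks replicate 3 (next 7.94). ENSMOCG00000018638 was at 5.66 in male naive replicate 3, with the next at 7.37. ENSMOCG00000001963 was at 11.78 in female 3 weeks replicate 1, with the next at 10.99.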

How the results depend on the processing

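The count of members past the threshold at 3 weeks against the midpoint stayed at 0 in females, in males and averaged over the sexes under every alternative run. Over all genes, the count of 0 became 1 in females without a filter. In males it became 2 without a filter and 1 with a mean of at least 50, quantile normalization or rescaling to the same total, and ranged from 0 to 1 with a male 3 weeks library left out. Averaged over the sexes it became 1 without a filter or with rescaling, and ranged from 0 to 2 with a library left out. For the sexes over the 3 conditions, 21 members became 13 among the 100 highest and 73 among all 390 genes. For the sexes at 3 weeks, 3 members became 15 with array weights (2157 genes against 461) and 10 among all 390 genes. They became 5 without female 24 h replicate 1 (637 genes), an alternative chosen after seeing the data. With a male 3 weeks library left out they ranged from 0 to 7, and the genes from 92 to 936. The cause was not tested. The median difference of the members kept its sign, except between the sexes at 3 weeks, where 0.019 became -0.0003 with the replicate block and -0.0018 over all 390 genes. The median over the 3 conditions, 0.028, ranged from 0.0074 to 0.052, and that of males against the midpoint, -0.037, from -0.051 to -0.012. No named gene changed sign in its comparison of the sexes.

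With the replicate block the medians of the members were 0.0092 between the sexes over the 3 conditions and -0.020 for males against the midpoint. The sexes differed under the block in 14 members over the 3 conditions and 2 at 3 weeks, and 0 members passed in the other comparisons. The correlation of same-numbered animals had no pair of groups with every value over 0.1. Between naive females and males at 24 h all 6 values were above 0 (0.060 to 0.215). Between naive females and males at 3 weeks all 5 were below 0 (-0.229 to -0.005). The pattern of low-value steps as a term was not run, since it follows from the groups. A fit of the groups compared alone is the same fit for the comparisons that use all 6 groups. In 5 members at least 1 library was listed at 0, where the scale sets the size of a difference.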
